A study of Homo sapiens with 8 samples.

Results

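The HOXA, HOXB and HOXD genes are 3 of the human clusters of Hox genes, and 29 of their protein-coding genes (10 in HOXA, 10 in HOXB and 9 in HOXD) were examined for peaks of HoxC5, a Hox protein encoded in the remaining cluster, and of its partner Pbx4. A peak was taken for a member when its summit lay in the gene body or within 20 kb of one of its transcriptional start sites (TSSs), and it was given to the member with the nearest TSS. Of 223511 peaks in 4 lists, 151 were taken by this rule. PC-3, an established human prostate cancer cell line, was the source of every library. Endogenous HoxC5 was immunoprecipitated in replicates 1 and 2 from PC-3 cells labelled endogenous. HoxC5 was immunoprecipitated in 1 library from cells with Hoxc5 overexpression, and Pbx4 in 1 library from cells with Pbx4 overexpression. The overexpressed proteins carried a Flag tag per the study's text, while the antibodies were raised against HoxC5 and Pbx4 themselves, so that tagged and native protein cannot be told apart. With 1 library for each overexpressed condition and no endogenous Pbx4 library, no difference between conditions was tested, and all values below are descriptions of these libraries. The peak lists hold no expression values, so the identity of the cells was not checked from them.

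Hox proteins are homeodomain transcription factors that specify position along the body axis. Within a cluster the genes lie in the order of their paralog groups, from the anterior end (groups 1 to 4 here) through the middle (5 to 8) to the posterior end (9 to 13), and they are activated in that order in the embryo. Hox proteins often bind DNA together with Pbx and Meis proteins, and some Hox genes are known targets of Hox and Pbx proteins, through elements inside the clusters. Posterior members are of interest in prostate cells, since HOXB13 is a marker of prostate epithelium.

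The sequences at 4 summits show what the endogenous sites, a strong HoxC5 site of HOXB and a site with a rare word look like. Each is the hg19 plus strand within 50 bp of the summit. The first pair are the only endogenous sites at the members (HOXA6, chr7:27188894-27188994; HOXA10, chr7:27212473-27212573). The next is the overexpressed HoxC5 peak of lowest q-value in HOXB (HOXB2, chr17:46616702-46616802). The last is the single member peak of overexpressed HoxC5 with a Hox-Pbx word fixed for the search (HOXA13, chr7:27245842-27245942).
HOXA6 endogenous: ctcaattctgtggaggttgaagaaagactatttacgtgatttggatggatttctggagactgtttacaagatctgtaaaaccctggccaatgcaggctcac
HOXA10 endogenous: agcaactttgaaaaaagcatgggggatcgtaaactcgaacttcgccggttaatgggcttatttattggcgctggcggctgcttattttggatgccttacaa
HOXB2 overexpressed: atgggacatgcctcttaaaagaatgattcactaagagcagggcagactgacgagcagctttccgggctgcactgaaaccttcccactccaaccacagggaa
HOXA13 overexpressed: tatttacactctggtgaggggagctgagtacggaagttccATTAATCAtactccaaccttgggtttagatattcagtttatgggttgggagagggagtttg
Capitals mark the Hox-Pbx word TGATTAAT, which the HOXA13 window holds on the minus strand.

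Overexpressed HoxC5 gave 89 peaks at the members and Pbx4 gave 60, and both were dense in HOXA and sparse in HOXD. For HoxC5 there were 62 peaks in HOXA, 25 in HOXB and 2 in HOXD, in windows of 137.4, 182.7 and 135.9 kb. Per 10 kb of window this is 4.51 peaks in HOXA, 1.37 in HOXB and 0.147 in HOXD, while the windows of all protein-coding genes together had 0.300. HOXA thus had 15.0 times the density of all gene windows, HOXB 4.56 times and HOXD 0.490 times. For Pbx4 the clusters had 34, 21 and 5 peaks, or 2.47, 1.15 and 0.368 per 10 kb, against 0.633 over all gene windows. The order of the clusters was the same for both proteins, and HOXA was 3.91 times and HOXD 0.581 times the gene windows for Pbx4. HoxC5 peaks covered 14.6% of the HOXA windows, 5.18% of HOXB and 0.235% of HOXD, and Pbx4 peaks covered 8.65, 3.71 and 0.980%. The HOXC cluster, which holds HOXC5 itself, lay between HOXB and HOXD, with 0.581 HoxC5 and 0.710 Pbx4 peaks per 10 kb. No q-value in the overexpressed HoxC5 list exceeded 0.00997 while the Pbx4 list reached 0.0490, and all 60 Pbx4 peaks at the members had a q-value of at most 0.01.

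**Figure D1:**
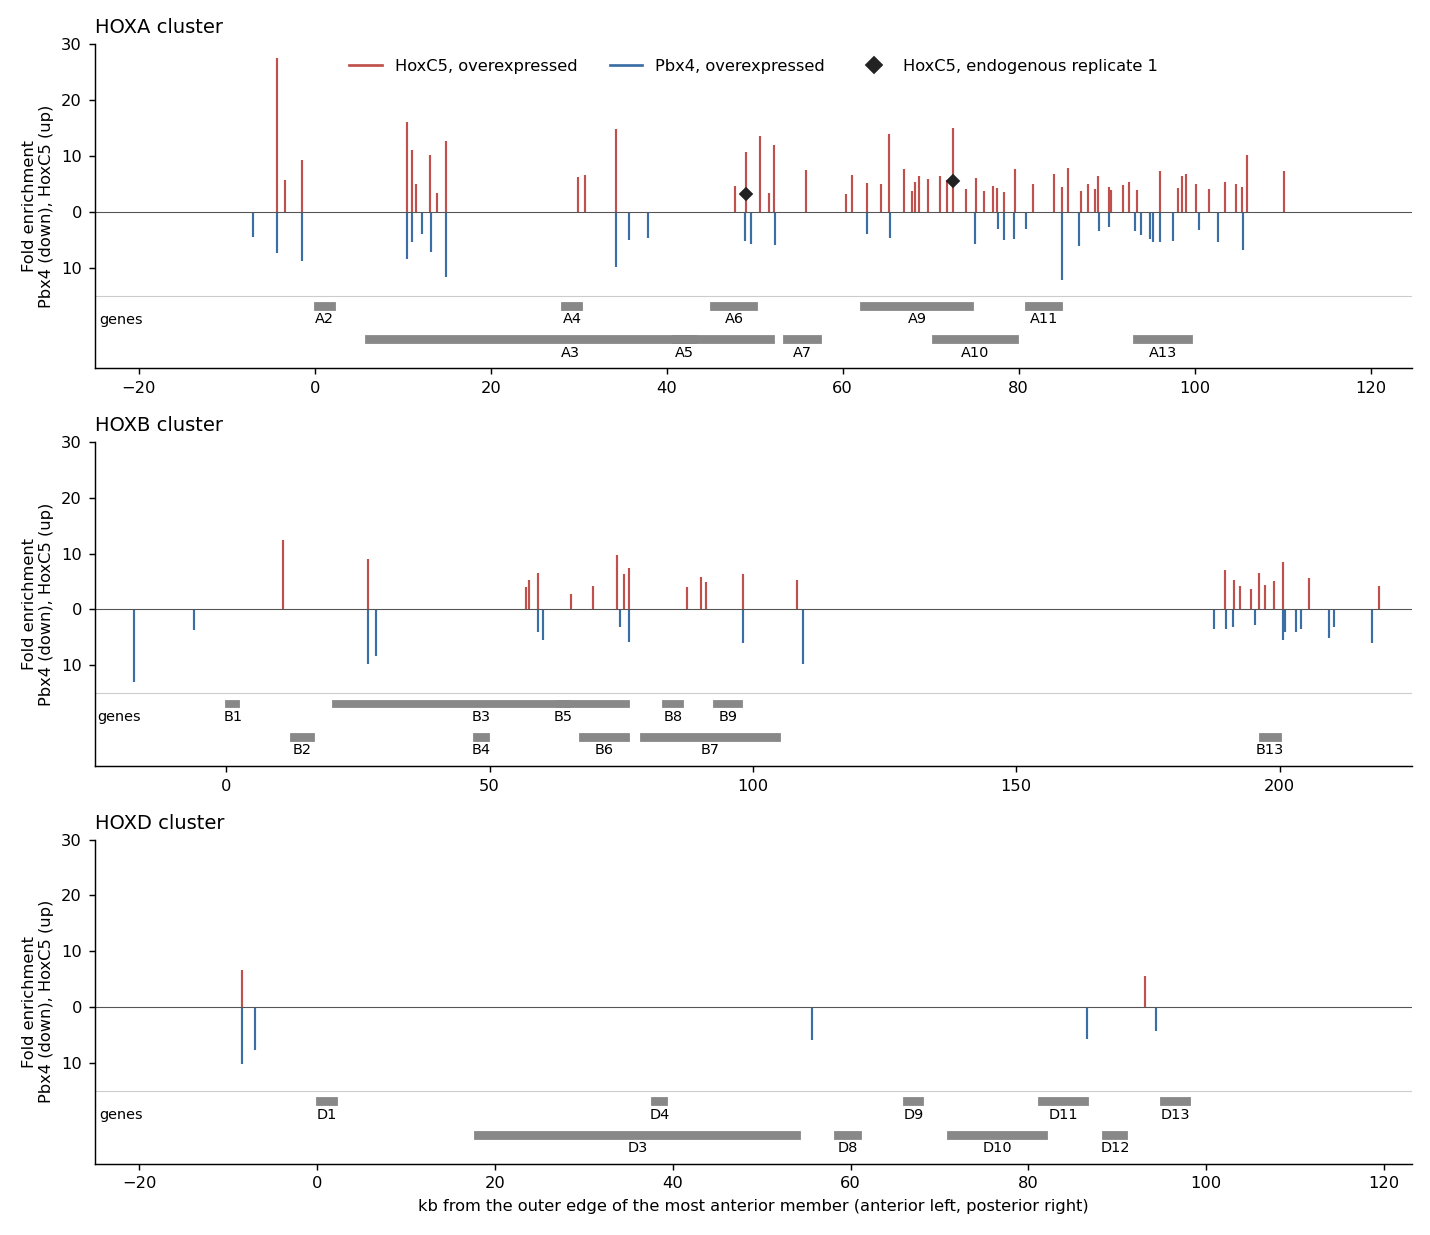
Peaks along the 3 clusters by distance in kb from the outer edge of the most anterior member (x axis), with the fold enrichment of each peak on the y axis (overexpressed HoxC5 up, Pbx4 down), gene bodies as grey bars and the 2 endogenous HoxC5 peaks as diamonds. HOXA has the most peaks (62 of HoxC5 and 34 of Pbx4), and HOXD has 2 and 5. Those of HOXB lie in the cluster and around HOXB13, with a stretch beyond 20 kb of any member TSS between them.

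Most members had a peak of overexpressed HoxC5 or Pbx4 in their window, as most genes did. For overexpressed HoxC5, 25 of the 29 members had at least 1 summit in their window, against 79.6% of 20163 protein-coding genes, and for Pbx4 all 29 had one, against 85.2%. Within 1 kb of a TSS, 14 members had an overexpressed HoxC5 summit (54.9% of all genes) and 11 had a Pbx4 summit (41.9%). The presence of a peak therefore did not set the members apart, while the number of peaks in a window differed widely among them. Windows of neighbouring members overlap, so that 1 summit can count for several of them. HOXA9, a posterior gene with a role in blood formation, had 39 overexpressed HoxC5 summits in its window, a number reached by 0.114% of protein-coding genes. HOXA10, HOXA11, HOXA3 and HOXA13 had 38, 37, 30 and 29, each a number reached by under 1% of genes. For Pbx4 the same windows stood out less. HOXA11 had the most with 18 summits, a number that 7.15% of genes reached. HOXB3 was the highest HOXB member for overexpressed HoxC5, with 13 summits in its window. HOXD3, HOXD4, HOXD8 and HOXD9, next to each other on chromosome 2, were the 4 members with none.

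Given to the nearest member, the peaks gathered at a few genes of each cluster. HOXA13, which patterns the digits and the genital tract, received 16 overexpressed HoxC5 and 10 Pbx4 peaks, and HOXA9 received 12 and 3. HOXA3, with a role in the throat and neck, received 8 of each. HOXA10 received 7 and 4, HOXA11 7 and 3, HOXA2 3 and 3, HOXA4 3 and 1, HOXA6 3 and 2, and HOXA7 3 and 0. HOXA5 received no peak from any list. In HOXB, HOXB13 received 10 overexpressed HoxC5 and 11 Pbx4 peaks, HOXB3 4 and 4 and HOXB6 4 and 2, and the other members 0 to 3. HOXB4 received none, HOXB1 received only 2 Pbx4 peaks, and HOXB2, HOXB5 and HOXB8 received only overexpressed HoxC5 peaks. In HOXD, HOXD1 received 1 overexpressed HoxC5 and 2 Pbx4 peaks, HOXD12 1 of each, and HOXD3 and HOXD11 1 Pbx4 peak each. HOXD4, HOXD8, HOXD9, HOXD10 and HOXD13 received none. Members with long alternative transcripts, HOXA3 and HOXB3 among them, have several TSSs, and by the canonical TSS 18 of the 62 HOXA peaks of overexpressed HoxC5 went to another member.

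**Figure D2:**
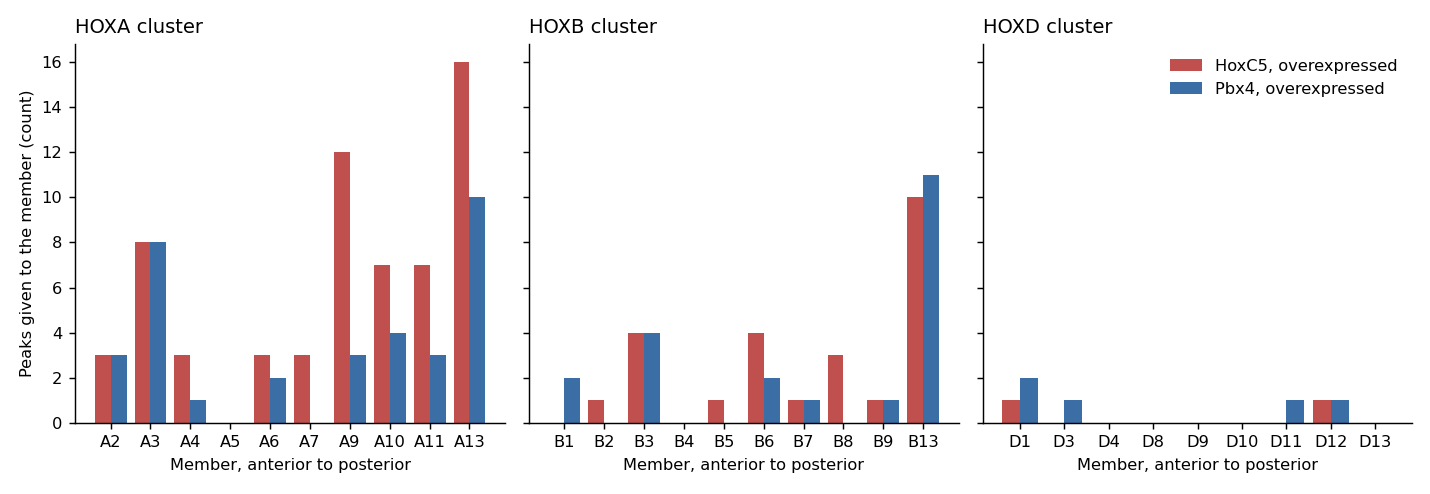
Number of peaks given to each member by its nearest TSS, with members ordered from anterior to posterior on the x axis and the count of peaks on the y axis, overexpressed HoxC5 beside overexpressed Pbx4. HOXA13 has the highest HoxC5 count with 16 peaks, and HOXB13 the highest Pbx4 count with 11.

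Stretches without a peak differed in length between the clusters. In HOXA the longest stretch free of overexpressed HoxC5 peaks was 14.6 kb, in the long form of HOXA3 and reaching into HOXA4, and the next was 13.2 kb and held HOXA5. In HOXB the longest was 29.7 kb and held HOXB4. In HOXD it was 101 kb and ran from HOXD12 to HOXD1 through each gene between them. The longest stretch free of Pbx4 was 18.8 kb in HOXA, 32.8 kb in HOXB and 62.3 kb in HOXD, the last with HOXD3, HOXD4 and HOXD1 inside it.

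The posterior end was denser than the anterior end in HOXA and in HOXB, for both proteins. Each base of a window was given to its nearest member, so that ends could be compared per length. The ends thus follow the nearest TSS and can depart from position in the cluster. Between HOXA6 and HOXA7, HoxC5 peaks at 27191618 and 27192208 and a Pbx4 peak at 27192322 counted as anterior through a HOXA3 TSS. Beyond HOXB9, the HoxC5 peak at 46714172 and the Pbx4 peak at 46715447 counted as middle through a HOXB7 TSS. In HOXA, overexpressed HoxC5 had 14 anterior peaks, 6 middle peaks and 42 posterior peaks, or 2.28, 3.43 and 7.19 per 10 kb. Pbx4 had 12, 2 and 20, or 1.95, 1.14 and 3.42 per 10 kb. In HOXB, overexpressed HoxC5 had 5, 9 and 11 peaks, or 0.613, 1.73 and 2.24 per 10 kb, and Pbx4 had 6, 3 and 12, or 0.736, 0.577 and 2.44. HOXB13 supplied 10 of the 11 posterior HoxC5 peaks and 11 of the 12 of Pbx4. Of those given to HOXB13, 6 of HoxC5 and 4 of Pbx4 lay nearer to the TSS of a coding gene that is not a member. With HOXB13 left out, anterior minus posterior density in HOXB was −0.481 peaks per 10 kb for HoxC5 and −0.358 for Pbx4, which rests on 1 peak of each protein at HOXB9. HOXD had 1 anterior and 1 posterior peak of overexpressed HoxC5 and 3 and 2 of Pbx4, too few to order its ends. The differences between the ends were smaller among peaks with a fold enrichment of at least 5. Anterior minus posterior density per 10 kb in HOXA was then −1.82 for HoxC5, against −4.92 for all peaks, and −0.0782 for Pbx4, against −1.47. In HOXB it was −0.934 for HoxC5, against −1.63, and −0.323 for Pbx4, against −1.71.

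**Figure D3:**
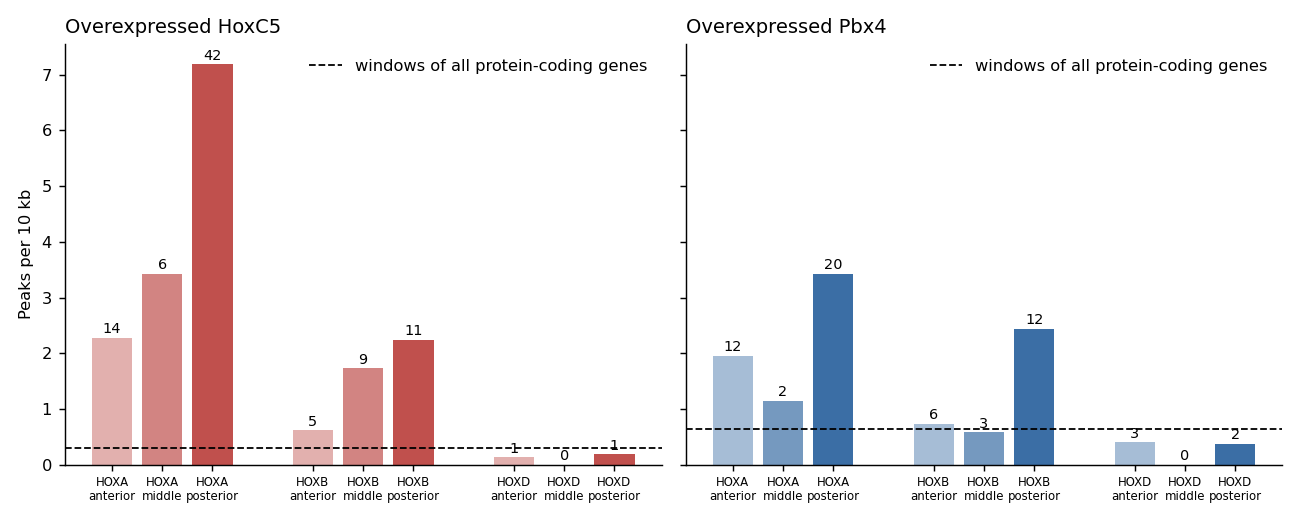
Peaks per 10 kb for the anterior, middle and posterior members of each cluster, overexpressed HoxC5 at the left and Pbx4 at the right, with the count of peaks over each bar and a dashed line at the density over the windows of all protein-coding genes. The posterior HOXA bar is the highest of each panel (7.19 and 3.42), and the HOXD bars lie below the line.

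Median peak strength was higher at the anterior end than at the posterior end in HOXA and HOXB, for both proteins. Fold enrichment is the ratio of signal to local background that the peak caller gave at the summit. The anterior HOXA peaks of overexpressed HoxC5 had a median fold enrichment of 9.63 and a median −log10 q of 21.7, and 5 of the 14 were in the top 10% of their list by q. The 42 posterior peaks had medians of 5.11 and 7.50, and 2 of them were in the top 10%. The middle HOXA peaks had a median fold enrichment of 7.01. Pbx4 had medians of 6.65 anterior and 4.87 posterior in HOXA, and 6.84 and 3.79 in HOXB. For overexpressed HoxC5 in HOXB the medians were 6.48 anterior and 5.33 posterior. The HOXB medians rest on few peaks, with 5 anterior ones of HoxC5 and 6 of Pbx4. At the posterior end, HOXB13 received 10 of the 11 HoxC5 peaks and 11 of the 12 Pbx4 peaks. The middle members did not follow one order, with medians of 5.19 for HoxC5 in HOXB, below both ends, and of 5.58 in HOXA and 5.76 in HOXB for Pbx4, between the ends although the middle had the fewest Pbx4 peaks per 10 kb. The ranges overlapped at every end. Over the whole lists the median fold enrichment was 6.17 for overexpressed HoxC5 and 6.36 for Pbx4, so that the posterior medians lay below those of the lists. Members' peaks as a whole had medians of 5.62 and 5.26.

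**Figure D4:**
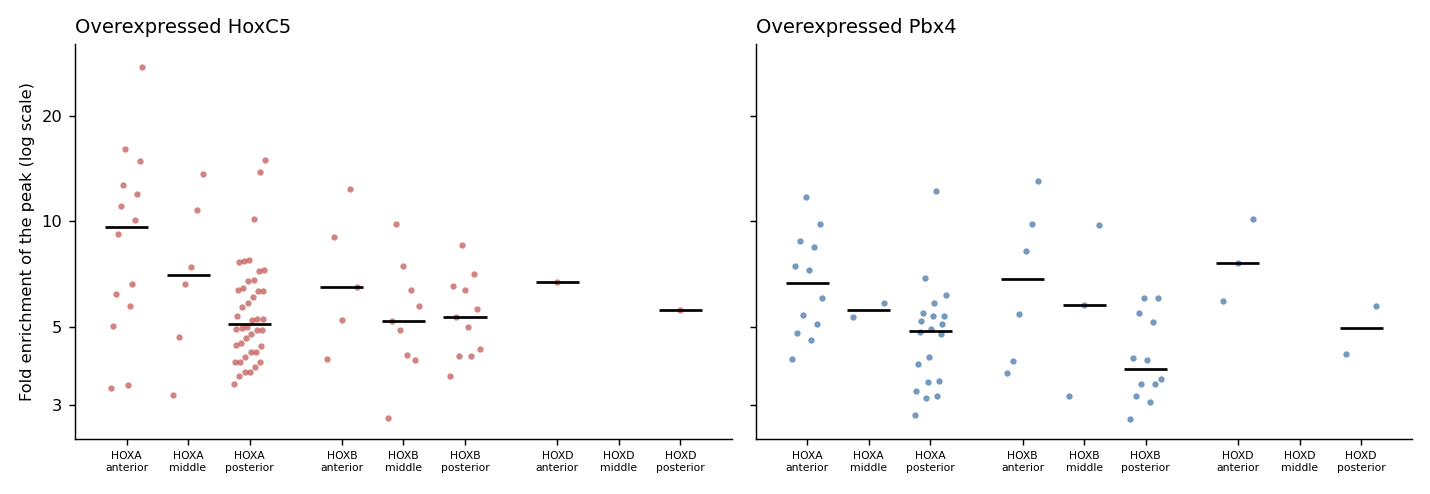
Fold enrichment of each peak on a log axis by cluster and end, for overexpressed HoxC5 (left) and Pbx4 (right), with points for peaks and bars for medians. In HOXA the HoxC5 median is 9.63 at the anterior end and 5.11 at the posterior end, with overlapping ranges.

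The strongest overexpressed HoxC5 peak at the members was that nearest to HOXA2, a gene that patterns the hindbrain and the face. It had a fold enrichment of 27.6 and a −log10 q of 96.9, rank 165 of 67196 by q. The summit lay downstream of the HOXA2 gene, 116 bp from the TSS of a coding gene that is not a member. A Pbx4 peak overlapped it, with a fold enrichment of 7.43. The next by q lay in an intron of HOXA3 at 27150477 on chromosome 7, with a fold enrichment of 16.1 and a −log10 q of 54.0, and its Pbx4 counterpart had its summit 1 bp away and a fold enrichment of 8.46. By q, the 2 strongest Pbx4 peaks of HOXA were also given to anterior members. One, at 27174216, lay upstream of HOXA4 (fold enrichment 9.81, −log10 q 42.4) and overlapped a HoxC5 peak of fold enrichment 14.8. The other, at 27154899 in HOXA3 (11.7 and 41.5), overlapped a HoxC5 peak of fold enrichment 12.7. By fold enrichment, the strongest was the Pbx4 peak at 27224869 given to HOXA11, at the posterior end (12.2 and 40.4).

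In HOXB, the overexpressed HoxC5 peaks of lowest q lay 3756 bp downstream of the HOXB2 TSS, outside the gene (summit 46616752 on chromosome 17, fold enrichment 12.4, −log10 q 31.1), and in an intron of HOXB6 (46680143, 9.79 and 29.4). Neither overlapped a Pbx4 peak. The Pbx4 peak of lowest q, at 46588419 near HOXB1, had a fold enrichment of 13, a −log10 q of 57.3 and a width of 862 bp, the widest of HOXB for Pbx4. It lay 19853 bp from the HOXB1 TSS, just inside the 20 kb limit, and had no HoxC5 peak. The second, in an exon of HOXB3 at 46632850 (9.83 and 22.2), overlapped a HoxC5 peak with a fold enrichment of 9.01. In HOXD, both overexpressed HoxC5 peaks lay outside genes. One was downstream of HOXD1 (fold enrichment 6.70) and the other 2028 bp upstream of HOXD12 (176962495 on chromosome 2, 5.60). The strongest Pbx4 peaks of HOXD were also downstream of HOXD1, with fold enrichments of 10.1 and 7.59, and the first overlapped the HoxC5 peak there. The widest overexpressed HoxC5 peaks were 1728 bp, given to HOXB13, and 1064 bp, at HOXA9. The summit of the first lay 5659 bp downstream of the HOXB13 TSS but 94 bp from the TSS of a coding gene that is not a member. The widest Pbx4 peaks of HOXA and HOXD were 982 bp at HOXA10 and 428 bp at HOXD1.

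Endogenous HoxC5 had 2 peaks at the members, both in HOXA and both in replicate 1. The first lay in an intron of HOXA6, from 27188832 to 27189056 with its summit at 27188944, and had a fold enrichment of 3.19 and a −log10 q of 2.34, rank 2207 of 2525 by q. The second lay from 27212444 to 27212751 with its summit at 27212523, in an exon 15 bp from a TSS of HOXA10, a gene of the uterus, gut and blood, and had a fold enrichment of 5.42 and a −log10 q of 6.32, rank 868. Both overlapped an overexpressed HoxC5 peak, with fold enrichments of 10.7 at HOXA6 and 15.0 at HOXA10, and the HOXA6 site also overlapped a Pbx4 peak of fold enrichment 5.33. Replicate 2, with 170 peaks, had none at any member. Because windows overlap, 8 members had an endogenous summit in their window in replicate 1, against 11% of protein-coding genes, and 0 had one in replicate 2, against 0.967%. Within 1 kb of a TSS, 1 member had a replicate 1 summit (3.38% of genes) and 0 had a replicate 2 summit (0.208%). The nearest endogenous peak outside the windows was 2.56 kb from the HOXB window beyond HOXB13, 533 kb from HOXA and 2108 kb from HOXD, all in replicate 1. Of the 89 overexpressed HoxC5 peaks, 2 (2.25%, 95% interval 0.273 to 7.88%) overlapped an endogenous replicate 1 peak, against 2.86% of the whole list. Intervals for shares are exact Clopper-Pearson intervals and cover counting error only, and neighbouring peaks of 1 library are not independent.

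The share of overexpressed HoxC5 peaks that overlapped a Pbx4 peak was lower at the members than in the whole list, while the share of Pbx4 peaks that overlapped a HoxC5 peak was higher. Of the 89 HoxC5 peaks, 32 (36.0%, 95% interval 26.1 to 46.8%) overlapped a Pbx4 peak by at least 1 bp, against 67.7% of the whole list. The share was 23 of 62 in HOXA (37.1%), 8 of 25 in HOXB (32%) and 1 of 2 in HOXD. Of the 60 Pbx4 peaks, 32 (53.3%, 95% interval 40.0 to 66.3%) overlapped a HoxC5 peak, against 28.5% of the whole list. That share was 67.6% in HOXA and 38.1% in HOXB. Both shares count the same overlaps, so they are not separate results, and each depends on how many peaks either list holds. The members had 89 HoxC5 and 60 Pbx4 peaks, and the whole lists 67196 and 153620. The part of these peak numbers in the shares was not tested. With both lists held to a q-value of at most 0.01, the whole-list shares were 67.2 and 28.7%, and the members kept all of their peaks. Along HOXA, 8 of 14 anterior HoxC5 peaks and 14 of 42 posterior ones (33.3%, 95% interval 19.6 to 49.5%) overlapped Pbx4, and the intervals of the ends overlap. Shared HoxC5 peaks in HOXA had a median fold enrichment of 7.23 and the others 5.28. Over the whole HoxC5 list the medians were 6.61 and 5.63, in the same order. The median distance between the summits of shared peaks was 61 bp in HOXA and 27.5 bp in HOXB, against 50 bp over the whole list.

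Overlap moved with the position and the q-value of a peak, so the members were also read beside like classes of each list. Among HoxC5 peaks within 1 kb of a coding TSS, the share was 34.3% at the members (12 of 35, 95% interval 19.1 to 52.2%) and 40.6% in the whole list. Among peaks over 1 kb away it was 37% (20 of 54, 95% interval 24.3 to 51.3%) against 75.8%. Among HoxC5 peaks with a q-value below the list's median the shares were 55.3% and 78.2%, and among those above it 21.6% and 57.0%. For Pbx4 peaks over 1 kb from a coding TSS, 51.3% at the members and 26.9% in the whole list overlapped HoxC5, and 79.2% and 42.3% of those with a q-value below the list's median did. Near a coding TSS the Pbx4 shares were 57.1% (12 of 21, 95% interval 34.0 to 78.2%) and 45.9%. For both proteins the interval of the members included the share of the list near TSSs, and in the other classes it lay below it for HoxC5 and above it for Pbx4.

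**Figure D5:**
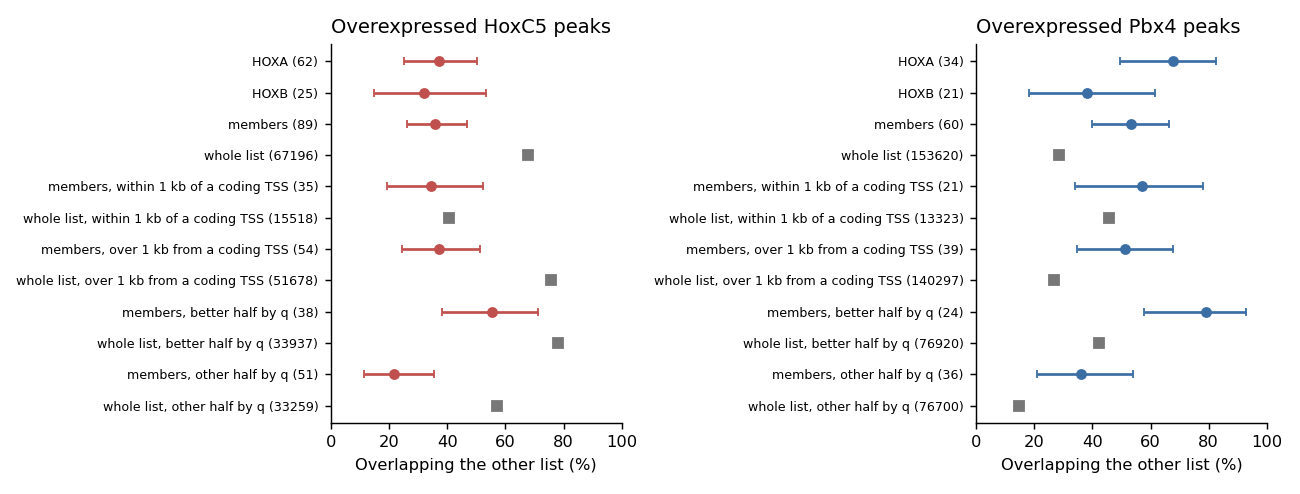
Percent of overexpressed HoxC5 peaks that overlap a Pbx4 peak (left) and of Pbx4 peaks that overlap a HoxC5 peak (right), as circles with exact 95% intervals for the members and grey squares for the whole lists, in all and by distance to a coding TSS and side of the list's median q-value, with the number of peaks in brackets. Each member HoxC5 share lies left of its whole-list square (36.0% against 67.7% in all) and each member Pbx4 share lies right of it.

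At promoters, 32 of the overexpressed HoxC5 peaks lay within 1 kb of a member TSS, 26 in HOXA and 6 in HOXB, and 7 and 3 of them overlapped a Pbx4 peak. Among these shared promoter peaks, the 2 of lowest q in HOXA were at HOXA9 (summit 27205248, fold enrichment 13.8, 92 bp from a TSS) and HOXA3 (27192208, 11.9, 6 bp from a TSS). In HOXB they were at HOXB13 (46806486, 8.53, 374 bp from the TSS) and HOXB6 (46682405, 7.45, 51 bp from a TSS). At HOXB13 and HOXA9 the Pbx4 peaks had fold enrichments of 5.46 and 4.78. No HOXD promoter had an overexpressed HoxC5 peak, and HOXD11 had the only Pbx4 peak within 1 kb of a HOXD TSS. Some peaks lay nearer to the TSS of a coding gene that is not a member. For overexpressed HoxC5 these were 6 in HOXA, all 3 of those given to HOXA2 and 3 given to HOXA10, and 6 in HOXB, all given to HOXB13. For Pbx4 they were 6 in HOXA and 4 in HOXB.

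Of the words sought near the summits, the AP-1 word had the widest gap between the members and the whole lists. AP-1 is a dimer of Jun and Fos proteins that binds TGACTCA or its reverse complement TGAGTCA. The word was within 50 bp of the summit in 2 of the 89 overexpressed HoxC5 peaks at the members (2.25%, 95% interval 0.273 to 7.88%) and in 20.5% of the whole list. In Pbx4 peaks it was in 4 of 60 (6.67%, 95% interval 1.85 to 16.2%) and in 18.5% of the list. Over 1 kb from a coding TSS, the HoxC5 shares were 2 of 54 (3.70%) and 24.7%, so the gap was also present away from promoters. Hox-Pbx words were rare in both. TGATTGAT was in 0 of 89 HoxC5 peaks, for which the interval reaches 4.06%, and in 0.796% of the list, and TGATTAAT was in 1 of 89 and in 0.807%. The broader form TGATNNAT, which includes both and was chosen after summit sequences had been seen, was in 8 of 89 (8.99%, 95% interval 3.96 to 16.9%) and in 9.68% of the list, a share near the background. It was also in 4 of 60 Pbx4 peaks (6.67%), against 9.49%. The Hox word TAATTA was in 1 of 89 HoxC5 peaks (1.12% against 2.01%) and in 1 of 60 Pbx4 peaks (1.67% against 1.96%). TGACAG, bound by Meis proteins, was in 3 of 89 (3.37% against 7.88%) and in 8 of 60 (13.3% against 10.4%). Words were sought on both strands, and a match describes the letters only. The median GC content of these windows was 55.4% at the members' HoxC5 peaks and 48.5% in the list, and 45.5 and 42.6% for Pbx4, and the part of base composition in the word shares was not tested.

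Other homeobox genes were read by the same rule for comparison. Of all protein-coding genes, 79.6% had an overexpressed HoxC5, 85.2% a Pbx4 and 11% an endogenous replicate 1 peak in their window. Within 1 kb of a TSS the shares were 54.9% for overexpressed HoxC5 and 41.9% for Pbx4. All 9 HOXC genes had overexpressed HoxC5 and Pbx4 peaks in their windows, with medians of 4 and 5 per window, and 6 and 5 of them had one within 1 kb of a TSS. HOXC5 itself had 3 of each protein in its window. A further 13 Hox-related homeobox genes were not counted among the genes of the clusters (the CDX, EVX, GBX, GSX, MEOX, MNX and PDX genes). Of these, 11 had an overexpressed HoxC5 peak and 11 a Pbx4 peak, with a median of 1 per window for both. An endogenous replicate 1 peak was found for 3 of them, GSX2, MEOX1 and MNX1. Of 12 noncoding genes of the clusters, 10 had an overexpressed HoxC5 peak and 12 a Pbx4 peak. No share over all noncoding genes is given here. HOTTIP, a noncoding gene beside HOXA13, had 27 HoxC5 and 17 Pbx4 summits in its window, and MIR196B, a microRNA gene of HOXA, had 32 and 12. These windows overlap those of the HOXA members, so that the same summits are counted again. At the HOXD end, HAGLR had 1 and 2, and MIR10B 0 and 1.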

How the data were processed

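Peaks were read from the authors' deposited narrowPeak lists, 1 for each of 4 ChIP libraries. The 4 input libraries were not used here. Before deposit, the authors aligned their reads to the hg19 build by BWA-MEM, dropped duplicates and reads of low mapping quality, and called peaks with MACS2 at a stated q-value limit of 0.05. The MACS2 version and the control of each call are not given in the sources used here. The deposited columns hold a score, a fold enrichment (a ratio), the −log10 of each p-value and q-value, and the summit offset. The lists hold no read totals, so depth is unknown and sets no precision here.

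Genes and TSSs came from GENCODE 44 lifted to GRCh37. Peaks were assigned by summit as described above, with 0 ties, and shares given exact Clopper-Pearson intervals (95%). No test was run, since each overexpressed condition has 1 library. Some summit sequences are not reported here. Named were all endogenous peaks, the 2 peaks of lowest q per cluster and list, the widest Pbx4 peaks, members with most or no peaks, and shared promoter peaks. The members and lists were chosen with earlier results of these data known. The classes by TSS distance and q, the equal q limit and the word TGATNNAT were chosen after values had been seen. Filters on q and on fold enrichment were tried as alternatives, as were other windows, TSS sets, overlap rules and list lengths. Assignment and overlap were tested on simulated data. Python 3.11.15, numpy 2.4.6, scipy 1.17.1 and pysam 0.24.0 were used.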

Additional observations from a re-analysis of the deposited data

How the results depend on the processing

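With a q-value of at most 0.001, 5 kb windows or 1 TSS per gene, there were 77 to 89 member peaks of overexpressed HoxC5 (89 in the report) and 46 to 60 of Pbx4 (60). With a fold enrichment of at least 5, there were 56 overexpressed HoxC5 and 34 Pbx4 member peaks. Windows of 50 kb gave 93 Pbx4 peaks, and a Pbx4 list cut to the length of the HoxC5 list gave 21. Endogenous peaks at the members numbered 1 with either filter, 4 with 50 kb windows, and 0 to 2 with one replicate left out, 0 without replicate 1. The share of HoxC5 peaks overlapping Pbx4 was 23.6% with an overlap of at least 50% of both peaks, 25.8% with summits within 100 bp and 19.1% with the shortened Pbx4 list, which 47.7% of the whole HoxC5 list overlapped.

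Anterior minus posterior peaks per 10 kb stayed negative in HOXA and HOXB under each alternative run. With the fold filter the difference was −1.82 (HoxC5) and −0.0782 (Pbx4) in HOXA and −0.934 and −0.323 in HOXB. With the q filter it was −0.960 for Pbx4 in HOXA and −0.892 in HOXB. Without HOXB13 it was −0.481 and −0.358, and by canonical TSS, an alternative chosen after seeing the data, −1.03 and −1.05. In HOXD the Pbx4 difference turned negative, −0.0101 with groups 1 to 8 as one end and −0.0799 by canonical TSS, on 5 peaks. The cause of these shifts was not tested beyond the fewer peaks each filter leaves. No paired analysis was possible because no result comes from a test and the input libraries that share replicate numbers were not used.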
